A study of Mus musculus with 12 samples.

Results

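The collagen chain genes encode the α chains from which collagens are assembled, and were taken as every entry of the expression tables whose gene name is Col, a type number, the letter a and a chain number. Both tables listed 44 such genes, of 43280 entries in the table of Control and 2MUT and of 23930 entries in the table of 2-HG(-) and 2-HG(+). Testing required a mean RPM (a gene's reads scaled to a library total of 1000000) of 1 or more, and 23 of the 44 were tested between 2MUT and Control and 18 between 2-HG(+) and 2-HG(-), and the 18 were all among the 23. The rule for members used gene names and level, not the changes.

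RNA-seq values were measured in mouse embryonic fibroblasts (MEFs), connective tissue cells grown from C57BL/6 embryos of day 13.5 and immortalized by repeated passage without an introduced gene. Control cells carried the mock retroviral vector, and 2MUT cells stably expressed a FLAG-tagged human IDH2 mutant from the same vector after puromycin selection. IDH2 is the mitochondrial isocitrate dehydrogenase, whose cancer-associated mutants make 2-hydroxyglutarate (2-HG) from α-ketoglutarate. The 2-HG(+) cells received a membrane-permeant 2-HG at 300 μM for 24 h and, per the labels, the 2-HG(-) cells received DMSO for 24 h, although the study's text calls them non-treated, and each of the 4 groups had 3 libraries. The comparisons ask how the expression profile changes with the mutant enzyme and with its product given from outside. Cells with wild-type IDH2, which the study also made, are not among these libraries. An effect of the mutation thus cannot be told from one of the added IDH2. The study's methods describe the experiments as triplicates, but neither they nor the labels say that the libraries of a group came from separate cultures, so that p-values measure the spread between these libraries, which may be technical.

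Collagen chains wind into a triple helix of repeated glycine-X-Y units, and the family is divided by what the helices build. Fibrillar collagens pack into the banded fibrils of skin, tendon, bone and cartilage, type IV collagens form the net of basement membranes, type VI forms beaded filaments around cells, FACITs (fibril-associated collagens with interrupted triple helices) decorate fibril surfaces, and transmembrane collagens stay in the plasma membrane. Fibroblasts are the main producers of the fibrillar chains in connective tissue. Their newly made chains are hydroxylated on proline and lysine by enzymes that use α-ketoglutarate as cosubstrate, trimmed outside the cell by procollagen proteinases and crosslinked by lysyl oxidases.

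The gene models differed between the classes in GENCODE M21 on GRCm38. Coding exons of exactly 54 bases numbered 21 in Col1a1, 24 in Col1a2, 24 in Col3a1, 31 in Col11a1 and 33 in Col27a1, but 1 to 3 in the 6 type IV genes, 2 or 3 in the 6 type VI genes and 0 in Col8a1. Several members lie side by side. Col4a1 (chr8:11198423-11312826, reverse strand) and Col4a2 (chr8:11312805-11449287, forward strand) start head to head and overlap by 22 bases, Col4a6 (chrX:141165403-141474076, reverse strand) and Col4a5 (chrX:141475385-141689234, forward strand) start head to head with 1308 bases between them, and Col3a1 (chr1:45311538-45349706, forward strand) and Col5a2 (chr1:45374321-45503282, reverse strand) lie tail to tail, 24614 bases apart.

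Upstream windows of 250 bases, ending at the base before the annotated start, were read for 35 of the 44 genes (38 windows) from RefSeq sequences on GRCm38.p6. The letters GGGCGG, on either strand, were found in 57.9% of the collagen windows and in 32.7% of the 32851 windows of all genes, CCAAT in 34.2% and 33.8%, and TATAAA in 13.2% and 12.4%. The windows of Col3a1 (chr1:45311288-45311537, forward strand) and Col11a1 (chr3:114030290-114030539, forward strand) are printed 5′ to 3′ because these fibrillar genes had the lowest fold changes of the family in 2MUT, and that of Col8a1 (chr16:57754738-57754987, reverse strand) because it had the largest difference between the comparisons among the 18 genes tested in both. Capitals mark these 3 motifs on either strand, and no annotated exon lies in the windows.
Col3a1: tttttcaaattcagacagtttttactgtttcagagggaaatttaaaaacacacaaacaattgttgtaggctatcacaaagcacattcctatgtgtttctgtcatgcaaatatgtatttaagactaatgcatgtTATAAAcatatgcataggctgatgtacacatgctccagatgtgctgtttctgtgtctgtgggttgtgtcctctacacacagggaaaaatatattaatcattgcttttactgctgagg
Col11a1: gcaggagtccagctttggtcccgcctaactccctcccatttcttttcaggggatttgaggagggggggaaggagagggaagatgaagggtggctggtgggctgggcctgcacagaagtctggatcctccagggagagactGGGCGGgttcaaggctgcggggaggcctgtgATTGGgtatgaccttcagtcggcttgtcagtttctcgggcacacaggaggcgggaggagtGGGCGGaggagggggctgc
Col8a1: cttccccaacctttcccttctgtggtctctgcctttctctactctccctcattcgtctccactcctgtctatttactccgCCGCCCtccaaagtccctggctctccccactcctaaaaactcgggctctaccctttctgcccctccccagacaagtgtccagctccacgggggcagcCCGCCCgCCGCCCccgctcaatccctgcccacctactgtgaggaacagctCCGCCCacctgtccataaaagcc
The Col3a1 window held TATAAA once and neither of the other motifs, and was 35.2% G or C. The Col11a1 window held GGGCGG at 2 places and CCAAT once (62.4% G or C), and the Col8a1 window held GGGCGG at 4 places (60.8% G or C). Over all windows the median was 52.4%. A match is a run of letters, and binding was not measured.

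The libraries held 6472439 to 7313602 reads on genes in the table of Control and 2MUT and 14959318 to 18363768 in the other table, so that 3 reads correspond to 0.410 to 0.464 RPM and to 0.163 to 0.201 RPM. Of the 10 fibroblast markers listed, Fn1 and Vim were abundant in all 12 libraries (lowest 1309.7 and 1215 RPM). In the table of Control and 2MUT, Twist2 and S100a4 were at 0 or under 3 reads, and Prrx1 and Lum had means under 1 RPM. Lum read 1.24 RPM in Control and 0.052 RPM in 2MUT. The 2-HG table listed 7 of the 10, with Lum at 0 or under 3 reads. The epithelial markers together stayed under 1 RPM in every library. The mouse Idh2 entry, which need not report the human transgene, read 70.9, 80.8 and 80.1 RPM in Control and 42.6, 51.1 and 55.2 RPM in 2MUT. Levels are given within a table, since the tables list different sets of entries.

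In 2MUT cells the collagen chain genes moved in both directions. Of the 23 tested, 9 were lower and 7 higher than in Control at a limma adjusted p under 0.05, and 7 did not pass. Among all 11065 genes tested, 17.3% were called lower and 16.5% higher, against 39.1% and 30.4% of the collagen genes. The median log2 fold change of the 23 was -0.04, beside 0.01 for all genes, with a range from -2.64 (Col11a1) to 2.98 (Col20a1). The 3 libraries of 2MUT lay wholly below those of Control for 11 of the 23 genes and wholly above for 7, where the shares of all genes tested were 24.0% and 23.5%. Fold changes here and below are on the log2(RPM + 1) scale, which understates the change of low genes. Several markers of smooth muscle moved along with these changes, since the 6 markers summed to 267 to 291 RPM in Control and 95.3 to 112 RPM in 2MUT, with Acta2, Cnn1 and Smtn lower and Tagln at 0 or under 3 reads, and of the 6 fibroblast markers tested 4 (Vim, Pdgfrb, Thy1, Twist1) were lower and 1 (Fn1) was higher. Sox9, the only chondrocyte marker of 8 listed that was tested, was lower, with 297 ± 33.9 RPM in Control and 186 ± 32.2 RPM in 2MUT (log2 fold change -0.68, limma adjusted p = 0.0025). Of 2 leukocyte markers tested Cd68 did not pass, and Lyz2, which reached the 1 RPM minimum only through 2MUT, had 0.560 ± 0.361 RPM in Control and 2.62 ± 0.141 RPM in 2MUT. The osteoblast marker and the endothelial marker tested did not pass. Their part in the collagen results was not tested, and in bulk libraries fewer cells of a type and less RNA per cell cannot be told apart.

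**Figure D1:**
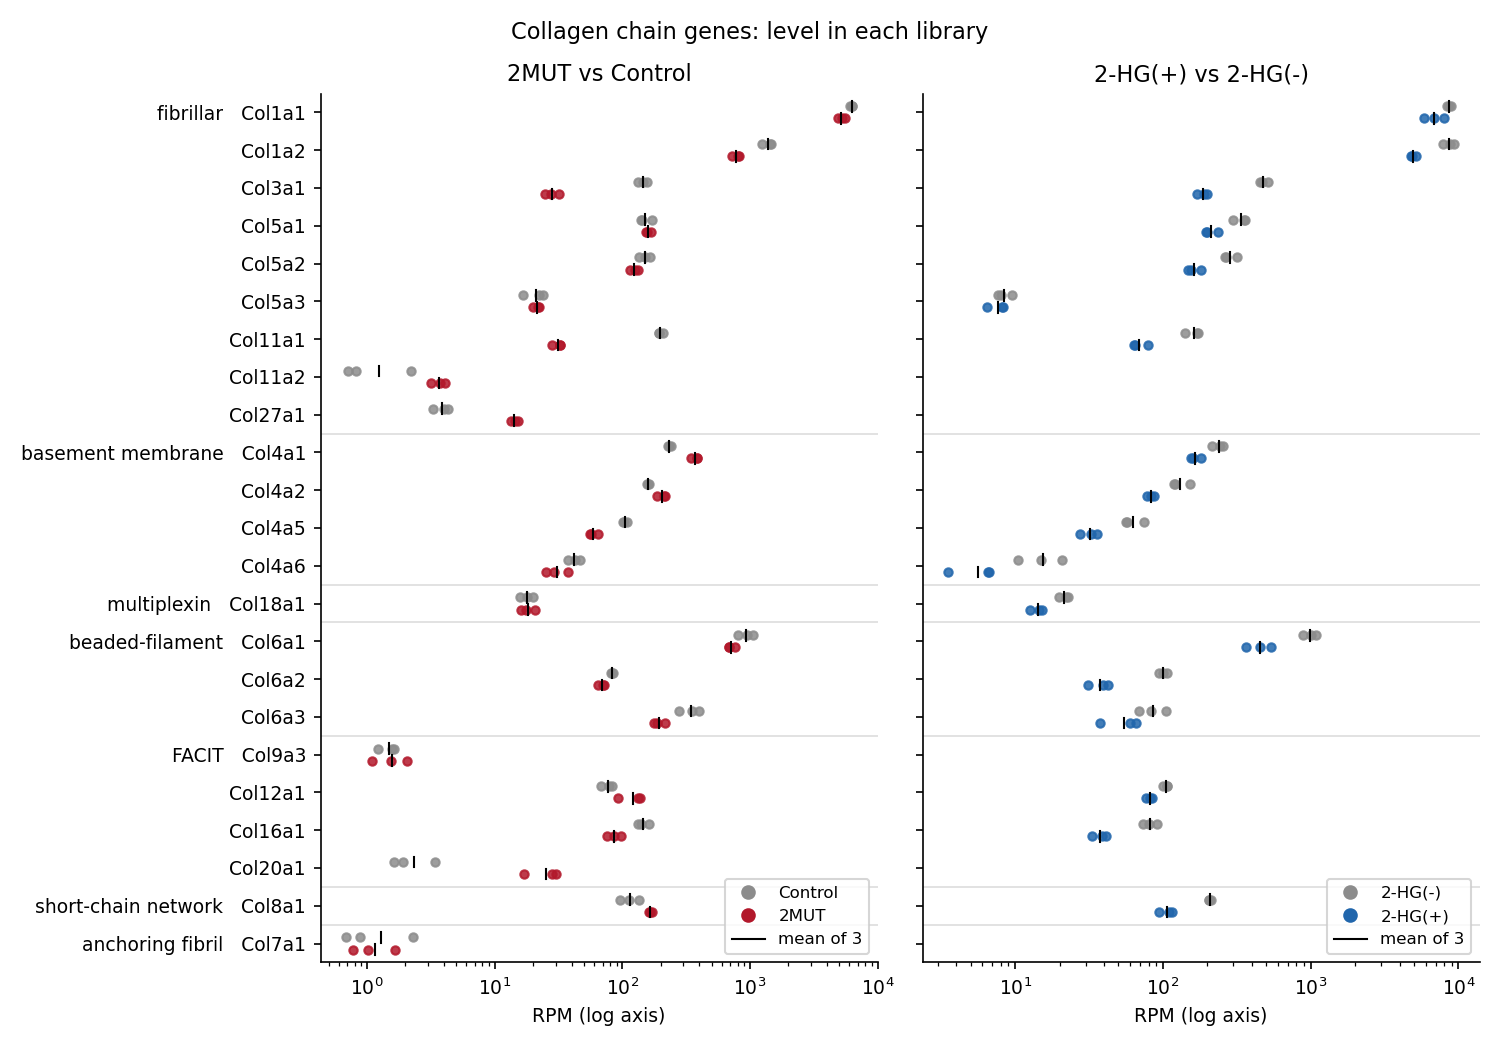
Level of each tested collagen chain gene in each library, in RPM on a log axis, grouped by class, with Control and 2MUT on the left and 2-HG(-) and 2-HG(+) on the right. Points are libraries and black ticks the means of 3. The 2MUT points of Col3a1 and Col11a1 lie well to the left of Control and those of Col20a1 and Col27a1 well to the right, while nearly all 2-HG(+) points lie to the left of 2-HG(-).

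Among the fibrillar genes, Col11a1 and Col3a1 had the lowest fold changes in 2MUT. Of 9 tested, 4 were lower, 2 were higher and 3 did not pass, with a median log2 fold change of -0.26. Col11a1 (chr3:114030540-114220718), a chain of the type XI collagen that sits in the core of thin cartilage fibrils, had 209.8, 192 and 194 RPM in Control and 32.6, 28.3 and 32.3 RPM in 2MUT, which is 6.23 times lower (log2 fold change -2.64 ± 0.109 SE, limma adjusted p = 8.2e-08). Col3a1, the only chain of type III collagen of skin and vessel walls, had 145, 156 and 132 RPM in Control and 24.6, 31.9 and 27.4 RPM in 2MUT, 5.03 times lower (log2 fold change -2.33 ± 0.128 SE, limma adjusted p = 5.5e-07). In both genes every 2MUT library lay far below the lowest Control library.

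The chains of type I collagen, the bulk fibril protein of connective tissue, were lower by less. Col1a2 had 1428, 1246 and 1462 RPM in Control and 823, 798 and 717 RPM in 2MUT (log2 fold change -0.82 ± 0.095 SE, limma adjusted p = 8.8e-05), and Col1a1 had 6337, 6107 and 6269 RPM in Control and 5491, 5203 and 4907 RPM in 2MUT (log2 fold change -0.26 ± 0.081 SE, limma adjusted p = 0.027). The groups did not overlap for either gene. The call on Col1a1 was lost when Control 3, 2MUT 2 or 2MUT 3 was left out (limma adjusted p = 0.069, 0.08 and 0.11), and also without the 1 RPM filter (limma adjusted p = 0.21) or without the mean-variance trend (limma adjusted p = 0.11), whereas that on Col1a2 held without any 1 library.

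The fibrillar genes that were higher in 2MUT were Col27a1 and Col11a2. Col27a1 (chr4:63214004-63334991), a fibrillar collagen known from cartilage, had 4.00, 4.27 and 3.28 RPM in Control and 15.1, 14.3 and 13.3 RPM in 2MUT, 3.16-fold higher (log2 fold change 1.66 ± 0.182 SE, limma adjusted p = 6.6e-05). Col11a2, the partner of Col11a1 in type XI collagen, had 2.22, 0.712 and 0.820 RPM in Control and 3.71, 4.10 and 3.17 RPM in 2MUT (log2 fold change 1.11 ± 0.282 SE, limma adjusted p = 0.011). The chains of type XI collagen thus moved in opposite directions, Col11a1 lower and Col11a2 higher, both without overlap of the groups. The call on Col11a2 was lost in a test of each gene with its own spread alone, called unmoderated below (adjusted p = 0.078).

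None of the type V genes, whose collagen nucleates type I fibrils and limits their width, passed the test in 2MUT. Col5a1 had 142, 139.7 and 171 RPM in Control and 153, 157 and 166 RPM in 2MUT (log2 fold change 0.08 ± 0.107 SE, limma adjusted p = 0.61), Col5a2 had 135, 151 and 165 RPM in Control and 115, 125 and 133 RPM in 2MUT (log2 fold change -0.27 ± 0.109 SE, limma adjusted p = 0.081), and Col5a3 had 16.6, 23.9 and 22.3 RPM in Control and 20.1, 21.7 and 22.2 RPM in 2MUT (log2 fold change 0.04 ± 0.165 SE, limma adjusted p = 0.88). The groups overlapped for Col5a1 and Col5a3 but not for Col5a2, whose 3 libraries of 2MUT were all below Control and which passed when Control 1 was left out (limma adjusted p = 0.037) and with the replicate number as a block (limma adjusted p = 0.044). Its neighbour on chromosome 1, Col3a1, had a log2 fold change of -2.33 in the same libraries.

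The basement membrane genes divided by gene pair in 2MUT. Col4a1, which with Col4a2 makes the type IV network found in nearly all basement membranes, had 239, 226 and 230.3 RPM in Control and 344, 382 and 383 RPM in 2MUT, 1.59-fold higher (log2 fold change 0.67 ± 0.089 SE, limma adjusted p = 0.00024). Col4a2 had 161, 156 and 158 RPM in Control and 212, 188 and 216 RPM in 2MUT (log2 fold change 0.37 ± 0.095 SE, limma adjusted p = 0.012). Col4a5, a chain of the networks of kidney and smooth muscle basement membranes, had 101, 103 and 109 RPM in Control and 57.0, 64.4 and 56.3 RPM in 2MUT (log2 fold change -0.81 ± 0.107 SE, limma adjusted p = 0.00023). Its head-to-head neighbour Col4a6 had 37.7, 46.3 and 42.4 RPM in Control and 25.3, 37.2 and 29.2 RPM in 2MUT (log2 fold change -0.46 ± 0.158 SE, limma adjusted p = 0.042). In all 4 genes the groups did not overlap, with Col4a1 and Col4a2 above Control and Col4a5 and Col4a6 below. The call on Col4a2 was lost without 2MUT 1 or 2MUT 3 (limma adjusted p = 0.054 and 0.056), and that on Col4a6 without Control 2, Control 3, 2MUT 1 or 2MUT 3 (limma adjusted p = 0.12, 0.055, 0.16 and 0.11). Col4a6 also did not pass without the 1 RPM filter (limma adjusted p = 0.063), without the mean-variance trend (limma adjusted p = 0.071) or unmoderated (adjusted p = 0.15). Col18a1, a multiplexin of basement membranes and the source of endostatin, had 15.7, 19.9 and 18.0 RPM in Control and 16.2, 20.6 and 17.6 RPM in 2MUT, with overlapping groups (log2 fold change 0.02 ± 0.162 SE, limma adjusted p = 0.94).

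The type VI genes of beaded filaments were the lower-only class among those with several members tested in 2MUT, with 2 of 3 called. Col6a1 had 810.1, 1046 and 951 RPM in Control and 679.8, 757 and 682 RPM in 2MUT (log2 fold change -0.40 ± 0.105 SE, limma adjusted p = 0.013), and Col6a3, which encodes the longest of these chains, had 278, 353 and 399 RPM in Control and 176, 216 and 186 RPM in 2MUT (log2 fold change -0.82 ± 0.134 SE, limma adjusted p = 0.00085). Col6a2 had 82.0, 84.3 and 82.7 RPM in Control and 71.2, 70.7 and 64.8 RPM in 2MUT and did not pass (log2 fold change -0.27 ± 0.104 SE, limma adjusted p = 0.068). The groups of each of the 3 genes were apart, with 2MUT below. The call on Col6a1 was at limma adjusted p = 0.054 without 2MUT 1 and 0.05 without 2MUT 3, and it was lost without the mean-variance trend (limma adjusted p = 0.06) and unmoderated (adjusted p = 0.093). The unmoderated test called Col6a2 (adjusted p = 0.031).

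FACIT genes showed the highest fold change of the family in 2MUT. Col20a1 (chr2:180986535-181018363), a FACIT whose function is little known, had 1.92, 3.42 and 1.64 RPM in Control and 28.3, 30.5 and 17.1 RPM in 2MUT, 7.87-fold higher (log2 fold change 2.98 ± 0.263 SE, limma adjusted p = 1.4e-05). Col12a1, a FACIT bound to type I fibrils, had 79.0, 67.9 and 82.6 RPM in Control and 132, 93.3 and 137 RPM in 2MUT (log2 fold change 0.63 ± 0.15 SE, limma adjusted p = 0.0074). Col16a1, another FACIT of fibroblast matrix, was lower, with 140.3, 161 and 131 RPM in Control and 97.0, 85.9 and 75.8 RPM in 2MUT (log2 fold change -0.74 ± 0.122 SE, limma adjusted p = 0.00095). Control and 2MUT libraries were apart in each of these 3 genes, and for Col12a1 the 2MUT 2 library, at 93.3 RPM, was the closest to Control. The call on Col12a1 was lost unmoderated (adjusted p = 0.097). Col9a3, a chain of the cartilage FACIT type IX, was at 1.48 ± 0.214 RPM in Control and 1.56 ± 0.475 RPM in 2MUT (log2 fold change 0.04, limma adjusted p = 0.92). In the annotation 16 of the 23 tested collagen genes overlap another gene, 10 of them one on the same strand (among them Col1a2, Col3a1, Col20a1 and Col27a1) and 9 one on the other strand (among them Col4a1, Col4a2 and Col12a1). The partners differ in kind: those of Col3a1 and Col27a1 are microRNA genes, and Col4a1 and Col4a2 overlap each other only at their starts. Col18a1 and Col9a3 overlap protein-coding genes on the other strand (Slc19a1 and Tcfl5). The positions of the amplified targets were not used here, so that any reads of these partners could not be told apart.

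Of the remaining classes, Col8a1, a short-chain collagen of vessel walls and the cornea, was higher in 2MUT, with 95.3, 112 and 136 RPM in Control and 171, 161 and 165 RPM in 2MUT (log2 fold change 0.54 ± 0.127 SE, limma adjusted p = 0.0069). All 3 of its 2MUT libraries exceeded the highest Control library, but the call was lost unmoderated (adjusted p = 0.079). Col7a1, the anchoring fibril collagen under epithelia, was at 1.28 ± 0.868 RPM in Control and 1.15 ± 0.452 RPM in 2MUT, with overlapping groups (log2 fold change -0.04, limma adjusted p = 0.93).

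With 2-HG the collagen chain genes were lower, and none was called higher. Of 18 tested, 16 were lower at a limma adjusted p under 0.05 and 2 (Col1a1 and Col5a3) did not pass, which is 88.9% lower against 16.7% of all 10384 genes tested, where 16.1% were higher. None was called higher by edgeR or DESeq2 on the recovered reads either, and 0 of the 18 fold changes were above 0 at any p. The median log2 fold change was -0.81, beside -0.02 for all genes, and the 18 values ran from -1.41 (Col6a2) to -0.12 (Col5a3). The 2-HG(+) libraries lay wholly below 2-HG(-) for 17 of the 18 genes and wholly above for 0, where the shares over all genes were 24.1% and 22.2%. With any 1 library left out, 15 or 16 genes were lower. The 5 smooth muscle markers in this table summed to 432 to 467 RPM in 2-HG(-) and 268 to 288 RPM in 2-HG(+), with Acta2 lower and Cnn1 higher, and of 6 fibroblast markers tested 2 (Pdgfra, Pdgfrb) were lower and 1 (Thy1) was higher. The osteoblast marker Runx2 was lower, with 41.8 ± 6.50 RPM in 2-HG(-) and 25.1 ± 8.22 RPM in 2-HG(+) (log2 fold change -0.76, limma adjusted p = 0.031), as was Cd68 of 2 leukocyte markers tested, with 12.4 ± 1.25 RPM in 2-HG(-) and 8.46 ± 1.01 RPM in 2-HG(+) (log2 fold change -0.51, limma adjusted p = 0.021), while Sox9 did not pass. Their part in these results was not tested.

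Of the fibrillar genes, 5 of 7 were lower with 2-HG, with a median log2 fold change of -0.80. Col3a1 had 453, 513 and 465 RPM in 2-HG(-) and 199, 171 and 189 RPM in 2-HG(+), 2.55 times lower (log2 fold change -1.35 ± 0.098 SE, limma adjusted p = 1.3e-05). Col11a1 had 142, 169 and 172 RPM in 2-HG(-) and 79.3, 64.3 and 63.5 RPM in 2-HG(+) (log2 fold change -1.21 ± 0.122 SE, limma adjusted p = 9.2e-05). As in 2MUT, these were the lowest fold changes among the fibrillar genes, and no treated library reached the lowest of the DMSO libraries.

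For type I collagen, Col1a2 had 9386, 8763 and 7811 RPM in 2-HG(-) and 4814, 4787 and 5148 RPM in 2-HG(+) (log2 fold change -0.81 ± 0.124 SE, limma adjusted p = 0.001). Col1a1 had 8339, 8870.3 and 8663 RPM in 2-HG(-) and 7952, 6782 and 5859 RPM in 2-HG(+) and did not pass (log2 fold change -0.34 ± 0.142 SE, limma adjusted p = 0.095). The 3 treated libraries of Col1a1 spread over 1049 RPM (SD) against 268 RPM in 2-HG(-), with 2-HG(+) 1 close to the DMSO libraries, and without that library the gene passed (limma adjusted p = 0.039). Under quantile normalization the log2 fold change of Col1a1 was 0.00.

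Of the type V genes, 2 of 3 were lower with 2-HG. Col5a1 had 357, 299 and 355 RPM in 2-HG(-) and 199, 236 and 197 RPM in 2-HG(+) (log2 fold change -0.68 ± 0.112 SE, limma adjusted p = 0.0016), and Col5a2 had 318, 267 and 264 RPM in 2-HG(-) and 148, 156 and 181 RPM in 2-HG(+) (log2 fold change -0.80 ± 0.115 SE, limma adjusted p = 0.0007). The groups were apart for each. Col5a3, which had 7.62, 8.02 and 9.49 RPM in 2-HG(-) and 6.48, 8.12 and 8.23 RPM in 2-HG(+), was the only tested member with overlapping groups (log2 fold change -0.12 ± 0.148 SE, limma adjusted p = 0.55).

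All 4 basement membrane genes tested were lower with 2-HG, with a median log2 fold change of -0.79. Col4a1 had 214, 257 and 242 RPM in 2-HG(-) and 179.7, 159 and 156 RPM in 2-HG(+) (log2 fold change -0.52 ± 0.105 SE, limma adjusted p = 0.0044). Col4a2 had 153, 121 and 119 RPM in 2-HG(-) and 83.1, 78.2 and 87.6 RPM in 2-HG(+) (log2 fold change -0.64 ± 0.118 SE, limma adjusted p = 0.0029). So the ubiquitous network pair, higher in 2MUT, was lower in every treated library here. Col4a5 had 74.1, 56.6 and 57.5 RPM in 2-HG(-) and 27.3, 32.8 and 35.7 RPM in 2-HG(+) (log2 fold change -0.95 ± 0.143 SE, limma adjusted p = 0.00096), and Col4a6 had 20.8, 15.0 and 10.4 RPM in 2-HG(-) and 3.50, 6.67 and 6.53 RPM in 2-HG(+) (log2 fold change -1.31 ± 0.267 SE, limma adjusted p = 0.0048). The highest treated library of Col4a6 stayed below its lowest DMSO library, and the call was lost unmoderated (adjusted p = 0.081). Col18a1 had 22.6, 19.7 and 21.9 RPM in 2-HG(-) and 12.7, 14.6 and 15.3 RPM in 2-HG(+) (log2 fold change -0.56 ± 0.126 SE, limma adjusted p = 0.008), again without overlap.

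Type VI genes had the lowest median of the classes with several members tested, -1.14 over 3 genes that were all lower. Col6a2 had 107, 94.7 and 100.4 RPM in 2-HG(-) and 31.1, 39.1 and 42.6 RPM in 2-HG(+), 2.65 times lower (log2 fold change -1.41 ± 0.128 SE, limma adjusted p = 5.2e-05). Col6a1 had 1079.5, 888 and 1009 RPM in 2-HG(-) and 364, 455 and 539 RPM in 2-HG(+) (log2 fold change -1.14 ± 0.145 SE, limma adjusted p = 0.00036). Col6a3 had 105, 68.4 and 83.6 RPM in 2-HG(-) and 37.6, 59.4 and 65.3 RPM in 2-HG(+) (log2 fold change -0.67 ± 0.213 SE, limma adjusted p = 0.037), and its highest treated library came within a few RPM of the lowest DMSO library. The call on Col6a3 was lost without 2-HG(-) 1, 2-HG(-) 3 or 2-HG(+) 1 (limma adjusted p = 0.13, 0.096 and 0.075), without the 1 RPM filter (0.063), without the mean-variance trend (0.052), with the replicate block (0.066) and unmoderated (adjusted p = 0.2).

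Among FACITs, Col16a1 had 80.6, 91.0 and 72.9 RPM in 2-HG(-) and 38.7, 33.3 and 41.1 RPM in 2-HG(+) (log2 fold change -1.09 ± 0.123 SE, limma adjusted p = 0.00018), and Col12a1 had 107, 107 and 101 RPM in 2-HG(-) and 84.6, 77.1 and 82.0 RPM in 2-HG(+) (log2 fold change -0.36 ± 0.092 SE, limma adjusted p = 0.014). The treated libraries were below the others in each, although the call on Col12a1 was lost without 2-HG(+) 2 (limma adjusted p = 0.073) and with the replicate block (limma adjusted p = 0.062). Col8a1 had 211, 206 and 205 RPM in 2-HG(-) and 94.5, 116 and 109 RPM in 2-HG(+) (log2 fold change -0.96 ± 0.101 SE, limma adjusted p = 0.00012), 1.95 times lower, and its DMSO libraries lay within a narrow band.

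**Figure D2:**
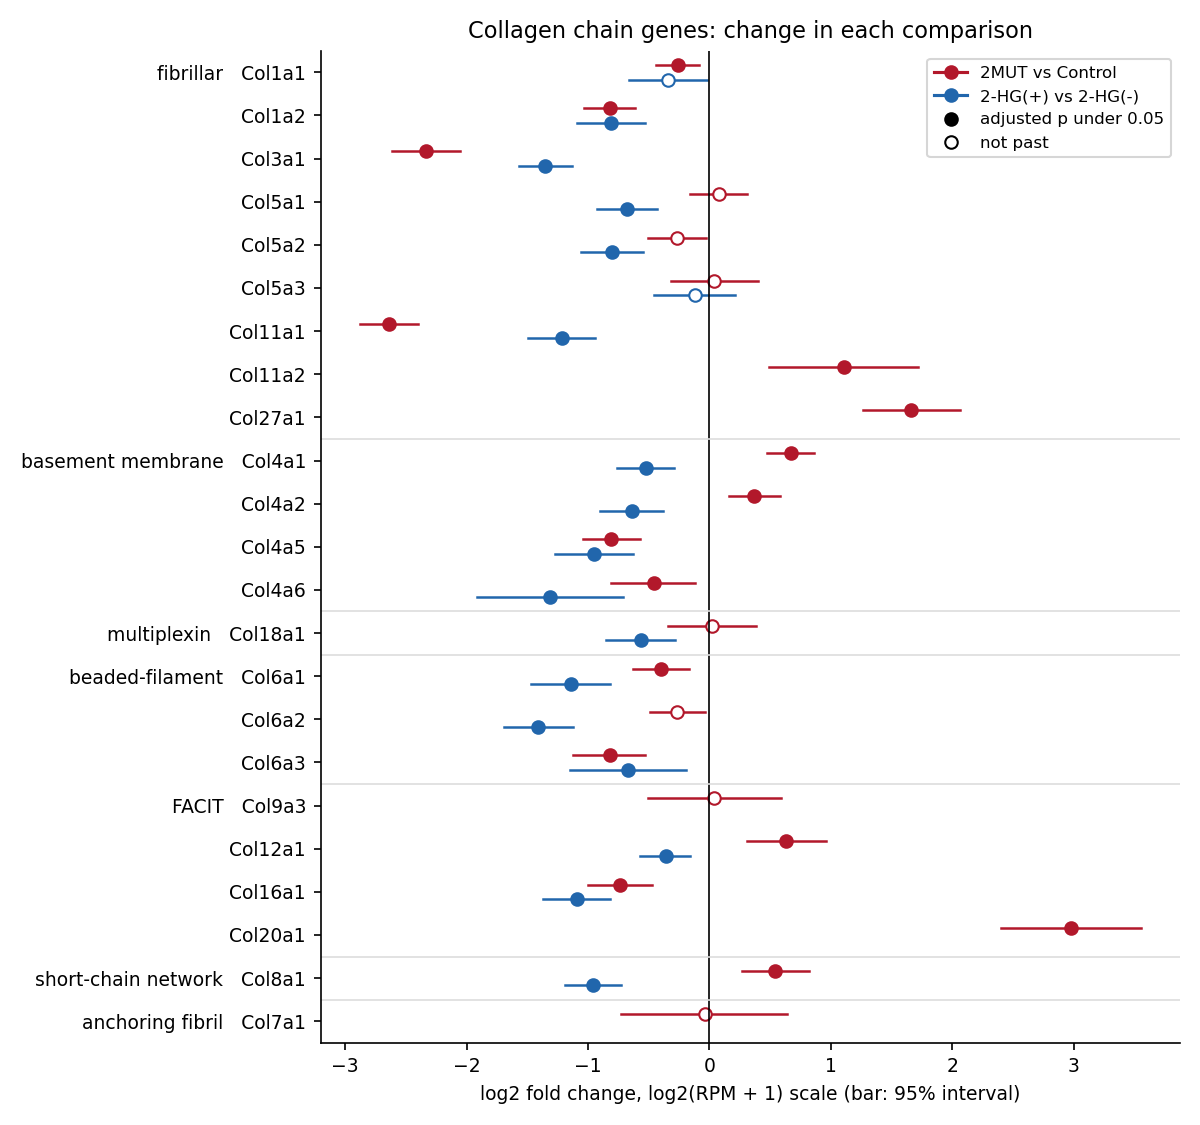
Log2 fold change of each tested collagen chain gene on the log2(RPM + 1) scale with its 95% interval, for 2MUT against Control (red) and 2-HG(+) against 2-HG(-) (blue). Filled points have a limma adjusted p under 0.05. The 18 blue points all lie at or left of -0.12, while the red points run from -2.64 to 2.98.

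Both comparisons, which share no libraries, tested 18 of the collagen chain genes. Lower in both were 8 genes (Col1a2, Col3a1, Col4a5, Col4a6, Col6a1, Col6a3, Col11a1 and Col16a1). Another 4 (Col4a1, Col4a2, Col8a1 and Col12a1) were higher in 2MUT and lower with 2-HG. Among all 9594 genes tested in both tables, 3.06% were lower in both, 1.5% higher in both, 4.2% higher in 2MUT and lower with 2-HG, and 5.18% the reverse. The other 6 passed in 1 comparison or none, with Col1a1 called lower in 2MUT alone, Col5a1, Col5a2, Col6a2 and Col18a1 called lower with 2-HG alone, and Col5a3 in neither.

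The difference between the changes was tested over the 12 libraries as the log2 change in 2MUT minus that with 2-HG. It passed for 11 of the 18 genes (61.1%, against 39.4% of 9594 genes tested), with 9 changes higher in 2MUT and 2 lower, where 19.9% and 19.5% of all genes were so. The median difference of the 18 was 0.56, beside 0.05 for all. The 4 genes with opposite calls had differences of 1.50 ± 0.17 SE, limma adjusted p = 1.3e-05 for Col8a1, 1.19 ± 0.135 SE, limma adjusted p = 1.3e-05 for Col4a1, 1.01 ± 0.152 SE, limma adjusted p = 0.00015 for Col4a2 and 1.00 ± 0.188 SE, limma adjusted p = 0.00094 for Col12a1. Col3a1 (-0.98 ± 0.158 SE, limma adjusted p = 0.00027) and Col11a1 (-1.43 ± 0.163 SE, limma adjusted p = 1.4e-05) were the genes whose fall was larger in 2MUT. The type VI genes Col6a1 (0.74 ± 0.195 SE, limma adjusted p = 0.0081) and Col6a2 (1.14 ± 0.162 SE, limma adjusted p = 9.5e-05) and the type V genes Col5a1 (0.75 ± 0.157 SE, limma adjusted p = 0.0019) and Col5a2 (0.53 ± 0.161 SE, limma adjusted p = 0.017) had changes that were more negative with 2-HG. Col18a1 also differed (0.58 ± 0.195 SE, limma adjusted p = 0.029), but not without Control 1, 2MUT 2, 2-HG(-) 1, 2-HG(-) 3 or 2-HG(+) 1 (limma adjusted p from 0.062 to 0.074).

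For 7 genes the difference did not pass, and their intervals show how large a difference these libraries leave possible. It was -0.01, 95% interval -0.32 to 0.30, for Col1a2 and 0.08, 95% interval -0.26 to 0.41, for Col1a1. For Col4a5 it was 0.14, 95% interval -0.25 to 0.53, and for Col6a3 -0.15, 95% interval -0.77 to 0.46. Type I chains thus had the narrower intervals and Col6a3 a wide one. Col16a1 had 0.35, 95% interval -0.03 to 0.74, Col5a3 0.16, 95% interval -0.31 to 0.64 and Col4a6 0.85, 95% interval 0.11 to 1.59, the last with a limma adjusted p of 0.066 that became 0.021 without 2-HG(-) 3, and it passed on the recovered reads (adjusted p = 0.03 by edgeR and 0.009 by DESeq2).

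**Figure D3:**
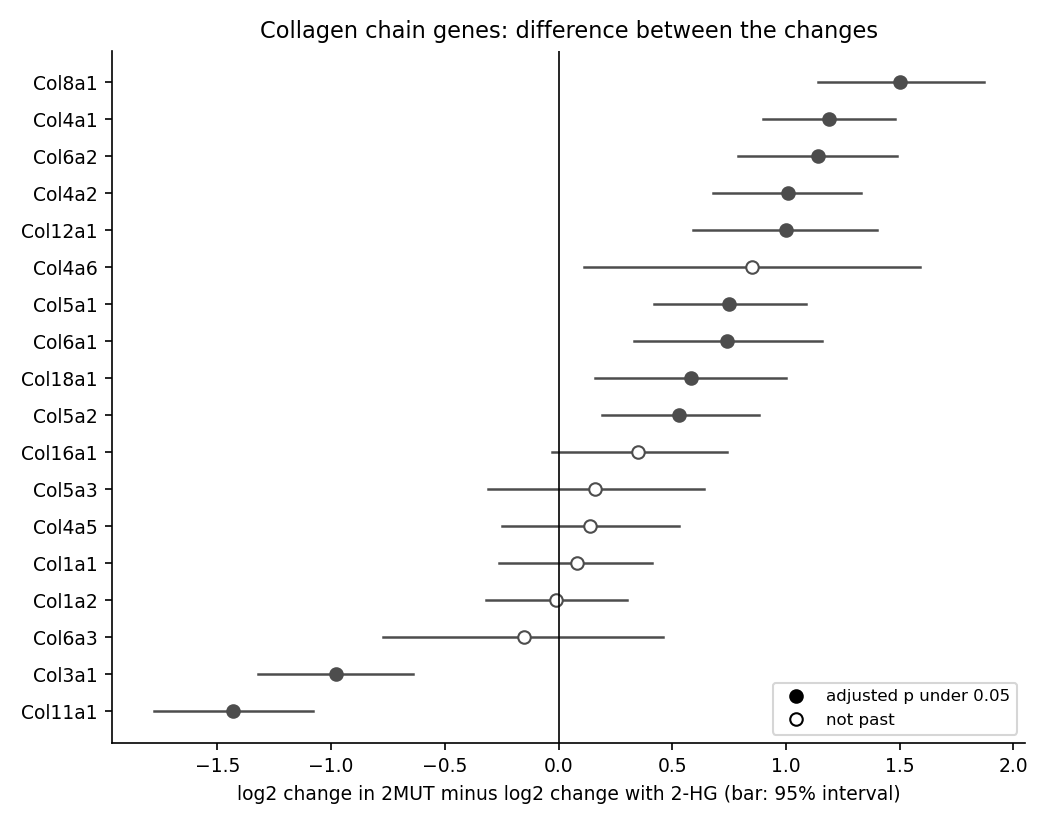
Difference between the log2 change in 2MUT and the log2 change with 2-HG for the 18 collagen chain genes tested in both tables, with 95% intervals and genes sorted by the difference. Filled points have a limma adjusted p under 0.05, and the differences run from -1.43 for Col11a1 to 1.50 for Col8a1.

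Ratios between chains of a type were set side by side for 6 pairs in each comparison, and in 7 of the 12 cases the groups did not overlap. No share over other pairs of genes was computed, and single genes did not overlap at the shares given above for each comparison, so nothing is read from this count. The log2 ratio of Col1a2 over Col1a1, chains of type I collagen, was -2.15, -2.29 and -2.10 in Control and -2.74, -2.70 and -2.78 in 2MUT, and 0.17, -0.02 and -0.15 in 2-HG(-) and -0.72, -0.50 and -0.19 in 2-HG(+). The groups did not overlap in either table, and the mean log2 ratio differed by -0.56 in 2MUT and by -0.47 with 2-HG. Col6a3 over Col6a1 was -1.54, -1.57 and -1.25 in Control and -1.95, -1.81 and -1.87 in 2MUT, whereas it was -3.36, -3.70 and -3.59 in 2-HG(-) and -3.28, -2.94 and -3.04 in 2-HG(+). That ratio was lower in 2MUT and higher with 2-HG, again without overlap. Col4a2 over Col4a1 was -0.57, -0.53 and -0.54 in Control and -0.70, -1.03 and -0.83 in 2MUT without overlap, but -0.49, -1.09 and -1.03 in 2-HG(-) and -1.11, -1.03 and -0.83 in 2-HG(+) with overlap. In 2MUT the ratio of Col5a2 over Col5a1 differed by -0.34 without overlap, and with 2-HG that of Col6a2 over Col6a1 by -0.28, while Col4a6 over Col4a5 overlapped in both comparisons, Col6a2 over Col6a1 in 2MUT and Col5a2 over Col5a1 with 2-HG. The pairs were chosen after the values were seen, and with 3 libraries against 3 an exact two-sided permutation test cannot go below p = 0.1, the value found wherever the groups did not overlap. Ratios are between entries of different length and amplification, so that a ratio is not a ratio of transcripts and is compared only between groups of a table.

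Together the 44 entries took 1.05 ± 0.0191% of the reads on genes in Control and 0.841 ± 0.0327% in 2MUT, and 2.06 ± 0.0735% in 2-HG(-) and 1.35 ± 0.0786% in 2-HG(+) (mean ± SD, n = 3 libraries each). Type I and III chains made up most of these reads, 70.2% to 75.6% of them in the table of Control and 2MUT and 85.7% to 90.3% in the other. Without Col1a1, Col1a2 and Col3a1 the shares were 0.278 ± 0.0198% and 0.241 ± 0.00552%, and 0.283 ± 0.0166% and 0.152 ± 0.0121%. In each of these comparisons the 3 treated libraries lay below the 3 reference libraries. The sums are descriptions and were not tested.

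**Figure D4:**
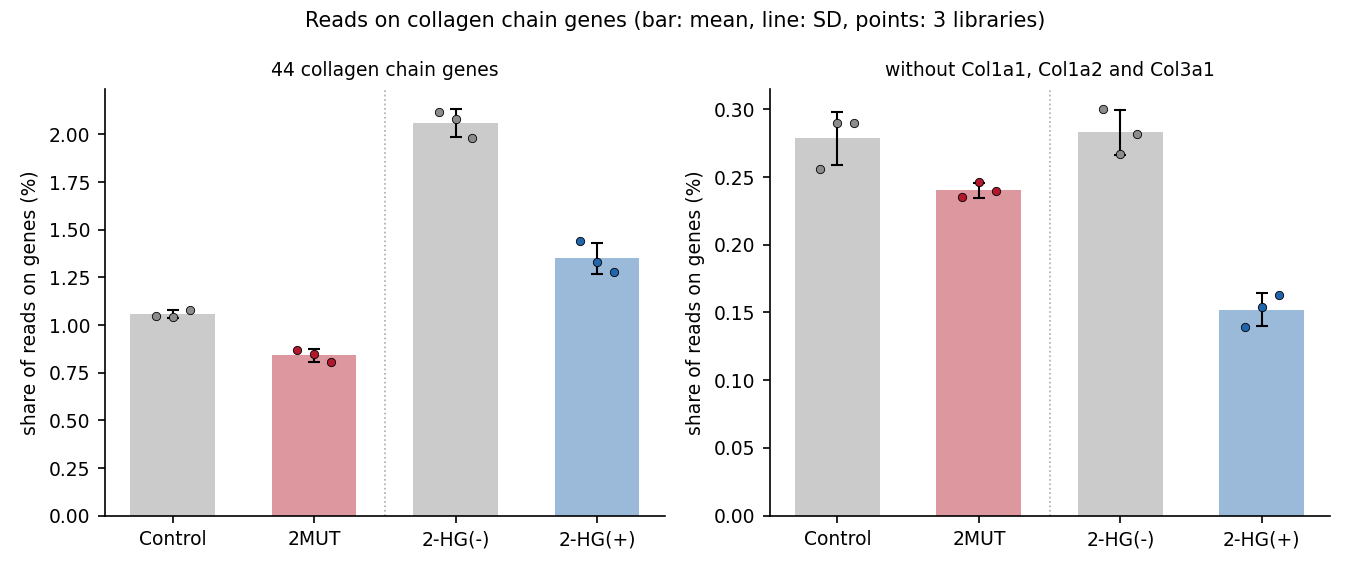
Share of the reads on genes that fell on the 44 collagen chain genes (left) and on the same genes without Col1a1, Col1a2 and Col3a1 (right), in percent. Bars are means, lines SD and points the 3 libraries of a group, and the dotted line separates the tables. Treated libraries lie below their reference in both panels.

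The genes that modify, trim and crosslink collagen chains were more often higher than lower in 2MUT. Of 34 listed, 29 were tested, with 12 higher (41.4%, against 16.5% of all genes tested), 4 lower (13.8%, against 17.3%) and a median log2 fold change of 0.25. Crtap, a part of the prolyl 3-hydroxylation complex, had 225 ± 11.1 RPM in Control and 568 ± 58.4 RPM in 2MUT (log2 fold change 1.33, limma adjusted p = 4.4e-06), Plod2, a lysyl hydroxylase, had 272 ± 65.1 RPM in Control and 524 ± 36.8 RPM in 2MUT (log2 fold change 0.97, limma adjusted p = 0.00049), and Pcolce2, an enhancer of the procollagen C-proteinase, had 8.25 ± 2.85 RPM in Control and 20.7 ± 0.552 RPM in 2MUT (log2 fold change 1.27, limma adjusted p = 0.00088). The prolyl 3-hydroxylase gene listed as Leprel1 was lower, with 438 ± 144 RPM in Control and 136 ± 3.63 RPM in 2MUT (log2 fold change -1.62, limma adjusted p = 0.00016). With 2-HG, 3 of 29 were higher (10.3%, against 16.1% of all genes tested) and 11 lower (37.9%, against 16.7%), with a median of -0.19. The same enzyme, listed there as P3h2, had 41.9 ± 2.85 RPM in 2-HG(-) and 12.5 ± 0.572 RPM in 2-HG(+) (log2 fold change -1.67, limma adjusted p = 9.3e-06), P4ha3, a prolyl 4-hydroxylase subunit, had 43.0 ± 0.840 RPM in 2-HG(-) and 13.6 ± 1.68 RPM in 2-HG(+) (log2 fold change -1.60, limma adjusted p = 1.9e-05), and Pcolce, another C-proteinase enhancer, had 1596 ± 414 RPM in 2-HG(-) and 741 ± 149 RPM in 2-HG(+) (log2 fold change -1.09, limma adjusted p = 0.0036). Pcolce2 was higher here too, with 11.7 ± 0.917 RPM in 2-HG(-) and 24.6 ± 3.11 RPM in 2-HG(+) (log2 fold change 1.00, limma adjusted p = 0.00051).

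Of 10 listed collagen receptor genes 6 reached the minimum and were tested in each comparison, of which 4 were higher and 0 lower in 2MUT (median 0.48), and 1 higher and 3 lower with 2-HG (median -0.48). Over all genes tested, 16.5% were higher and 17.3% lower in 2MUT, and 16.1% and 16.7% with 2-HG. The α11 integrin gene Itga11, whose product binds type I collagen on fibroblasts, had 48.1 ± 4.22 RPM in Control and 70.0 ± 6.17 RPM in 2MUT (log2 fold change 0.53, limma adjusted p = 0.0063) but 69.6 ± 4.89 RPM in 2-HG(-) and 20.9 ± 3.79 RPM in 2-HG(+) (log2 fold change -1.70, limma adjusted p = 2.5e-05). Itga1, another collagen-binding integrin, was likewise higher in 2MUT (log2 fold change 0.82, limma adjusted p = 0.0019) and lower with 2-HG (log2 fold change -0.59, limma adjusted p = 0.022). Itgb1, their shared β1 partner (log2 fold change 0.80, limma adjusted p = 0.00066), and the receptor kinase gene Ddr1 (log2 fold change 0.43, limma adjusted p = 0.036) were higher in 2MUT. With 2-HG the uptake receptor gene Mrc2 was lower (log2 fold change -0.64, limma adjusted p = 0.00083) and Ddr2, a kinase receptor for fibrillar collagen, was higher (log2 fold change 0.45, limma adjusted p = 0.022).

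Among 9 collagen-cleaving proteases, 2 were tested in 2MUT, where Mmp14, a membrane-bound collagenase, was lower (log2 fold change -0.57, limma adjusted p = 0.0029) and Mmp2, a gelatinase, was higher (log2 fold change 0.44, limma adjusted p = 0.038). With 2-HG, 3 were tested and 2 were lower, Mmp2 (log2 fold change -0.74, limma adjusted p = 0.022) and the gelatinase Mmp9, with 11.2 ± 1.47 RPM in 2-HG(-) and 1.69 ± 0.551 RPM in 2-HG(+) (log2 fold change -2.19, limma adjusted p = 2.6e-05). Of 12 genes on the path from TGF-β, a main inducer of collagen genes in fibroblasts, 6 were higher and 0 lower in 2MUT (median 0.37), with Tgfb2 (log2 fold change 1.41, limma adjusted p = 0.0048), Smad3 (log2 fold change 0.96, limma adjusted p = 0.017) and the receptor genes Tgfbr3 (log2 fold change 0.62, limma adjusted p = 0.00025) and Tgfbr2 (log2 fold change 0.55, limma adjusted p = 0.00072) having the largest changes. With 2-HG the genes called lower were 2, Tgfbr3 (log2 fold change -0.96, limma adjusted p = 0.00011) and Tgfbr2 (log2 fold change -0.57, limma adjusted p = 0.0011). The share of all genes called, printed above for each comparison, is the background for these counts, and the list changes were not tested against other genes.

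**Figure D5:**
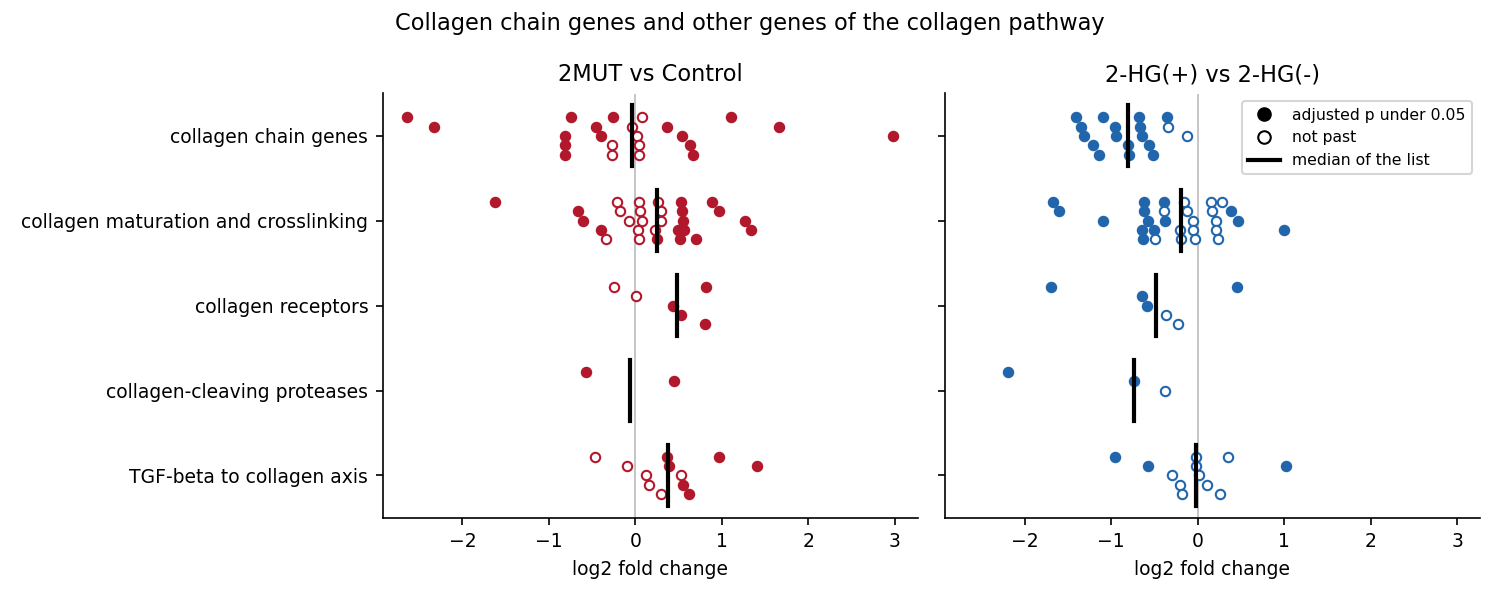
Log2 fold changes of the tested collagen chain genes and of the tested genes of 4 lists of the collagen pathway, for 2MUT against Control (left) and 2-HG(+) against 2-HG(-) (right). Each point is a gene, filled where the limma adjusted p is under 0.05, and black lines are medians, which for the collagen chain genes are -0.04 and -0.81.

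The members not tested had a mean under 1 RPM. In the table of Control and 2MUT 21 genes were under the minimum, of which 8 were at 0 in all 6 libraries, 18 had at most 3 reads in any library and the highest value was 1.02 RPM. They included all 4 transmembrane collagen genes and Col2a1, the main cartilage collagen, with 0 reads in Control and 8 in 2MUT, of which 7 were in 2MUT 2. In the table of 2-HG(-) and 2-HG(+), 26 genes were not tested, with 6 at 0 in all libraries, 19 at no more than 3 reads in any, and a highest value of 1.60 RPM in Col27a1. Col27a1, over 3 reads in all 6 libraries, had 58 reads over the 2-HG(-) libraries and 33 over the 2-HG(+) libraries, Col11a2 had 8 and 8, and Col20a1 had 4 and 6. Without the 1 RPM filter Col27a1 had a log2 fold change of -0.35 with 2-HG (limma adjusted p = 0.14) and Col20a1 had 0.05 (limma adjusted p = 0.74). The differences between the changes in 2MUT and with 2-HG then passed for Col20a1 (2.93, limma adjusted p = 2.3e-05), Col27a1 (2.01, limma adjusted p = 3.1e-05) and Col11a2 (1.11, limma adjusted p = 0.012). With 1 RPM added before log2, the changes of Col20a1 and Col11a2 with 2-HG could only lie near 0. Their differences restate the log2 fold changes in 2MUT (2.98 and 1.11) and say nothing of a change with 2-HG. The difference of Col27a1 is also mostly its change in 2MUT (1.66). Reads are amplified without molecular identifiers, so these floors cover counting error only.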

How the data were processed

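The authors made Ion AmpliSeq Transcriptome libraries from total RNA, aligned the reads with TMAP to the mouse transcriptome reference of the kit, and used the AmpliSeqRNA plug-in for counting. They deposited RPM values in a table for each experiment. Each library summed to 1000000, and all values were whole multiples of 1 read (tolerance 0.05 reads), so that read counts were recovered from the deposited RPM. A genome build is not given in the sources used here. Each table had 27 date-like names and 4 repeated-name entries, none of them a collagen. All 12 value columns matched a sample label.

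The log2(RPM + 1) values of a table were tested with limma 3.58.1 (R 4.3.3, mean-variance trend) where the gene's mean over the 6 libraries was 1 RPM or more. P-values were adjusted by the Benjamini-Hochberg method over all genes tested, with a threshold of 0.05, and the contrast of the changes was fitted over 12 libraries. The fits were checked on data simulated with a fixed spread between libraries. Of genes given a log2 change of 0.5, 48 of 100 were called in 2MUT and 58 of 99 with 2-HG. A gene that did not pass may therefore have changed. All tested collagen genes are named, with each library's value where the mean was at least 10 RPM or the test passed, and from each pathway list the 4 genes with the largest change past the threshold. A result of 1 listed pathway gene is not reported here. Members and lists were chosen with earlier results of these data known. Alternatives were log2(RPM + 0.1), values under 1 RPM set to 1, no filter or a 10 RPM filter, quantile, 75th percentile or median-of-ratios scaling, a fit without trend, an unmoderated test, edgeR 4.0.16 and DESeq2 1.42.0 on the recovered reads, a block for the replicate number, and leaving out each library. Coordinates and exons come from GENCODE M21 and upstream sequences from RefSeq. Tables and plots used pandas 2.3.3, scipy 1.17.1 and matplotlib 3.10.9.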

Additional observations from a re-analysis of the deposited data

Results flagged for a closer look

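The change in 2MUT and the change with 2-HG differed, by limma's test of the difference, in 11 of the 18 collagen chain genes tested in both tables. The log2 change in 2MUT was the higher one for Col8a1 (by 1.50), Col4a1 (1.19), Col6a2 (1.14), Col4a2 (1.01), Col12a1 (1.00), Col5a1 (0.75), Col6a1 (0.74), Col18a1 (0.58) and Col5a2 (0.53). It was the lower one for Col3a1 (a difference of -0.98) and Col11a1 (-1.43). For Col8a1, Col4a1, Col4a2 and Col12a1 each comparison passed its own test with the opposite sign, and for each of these genes all 3 libraries of 2MUT lay above Control and all 3 of 2-HG(+) below 2-HG(-). The experiments also differ in vector, exposure time, sequencing depth, the entries of their tables and the levels of the reference groups. Col1a2 read 1378 RPM in Control and 8653 RPM in 2-HG(-), and Col6a3 read 344 RPM and 85.7 RPM. Which of these the differences follow was not tested.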

How the results depend on the processing

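With 2-HG 14 to 16 collagen genes were lower and 0 higher in the alternative fits, where without the filter Col15a1 passed (adjusted p = 0.039) and Col6a3 did not, and leaving out a library gave 15 to 16 and 0. In 2MUT 7 were higher and 9 lower, with 7 lower without the filter, 6 without the mean-variance trend and 8 unmoderated. With a minimum of 10 RPM 5 were higher. The unmoderated test called 4 higher, losing Col8a1, Col11a2 and Col12a1 (1021 higher and 1223 lower over all genes, against 1826 and 1915, and for 2-HG 1098 and 1139, against 1668 and 1737), and leaving out a library gave 6 to 7 higher and 6 to 10 lower. For the difference leaving out a library gave 8 to 9 higher and the alternative fits 9 to 12, with 12 without the filter and 10 with edgeR and with DESeq2, and 2 lower throughout. The ratio of the collagen share of reads went from 0.798 to 0.864 in 2MUT and from 0.655 to 0.537 with 2-HG without Col1a1, Col1a2 and Col3a1, which are left out there by construction. Direction changed only for genes that did not pass. Under quantile normalization the log2 fold change was -0.03 for Col9a3 in 2MUT, 0.00 for Col1a1 with 2-HG and -0.33 for the difference of Col1a1. For the difference of Col1a2 it was 0.03 with the 75th percentile shift and 0.02 with DESeq2. With a library left out, values in 2MUT ranged from -0.11 to 0.14 for Col5a3, -0.23 to 0.25 for Col7a1, -0.09 to 0.17 for Col9a3 and -0.07 to 0.10 for Col18a1, and the difference from -0.03 to 0.19 for Col1a1 and -0.08 to 0.06 for Col1a2. The cause was not tested.

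Libraries with the same number did not deviate together (correlations of 0.071, 0.029 and 0.032 in 2MUT, and of -0.457, -0.158 and 0.057 with 2-HG). Between libraries of different number the correlations ran from -0.138 to 0.089 in 2MUT and from -0.414 to 0.48 with 2-HG. With 3 libraries per group, these values cannot settle whether the samples were paired. With the replicate number as a block, 7 collagen genes were higher and 10 lower in 2MUT (Col5a2 added) and 0 and 14 with 2-HG (Col6a3 and Col12a1 lost). The 1 RPM minimum left 21 and 26 of the 44 genes untested.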
